A study of Mus musculus with 10 samples.

Results

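The 9 genes described here mark the endothelium, the cell layer that lines blood vessels. They are Pecam1, Cdh5, Kdr, Flt1, Flt4, Tek, Tie1, Vwf and Emcn, taken by gene symbol from 19938 genes on arrays of osteoblastic lineage cells (OBCs), a sorted stromal fraction of the inner bone surface that gives rise to bone. All 9 had a probe set, 1 each, that is annotated to that gene alone. The cells came from 5 BA mice and 5 control mice on the C57BL/6 strain, with 1 array for each mouse. BA mice (Scl-tTA::TRE-BCR/ABL) carry the BCR/ABL oncogene behind a tetracycline-responsive element, switched on by the tTA transactivator in cells that use the Scl promoter, among them blood-forming cells, once doxycycline is removed. Both groups were taken off doxycycline at 5 weeks of age and sampled 5 to 6 weeks later, when BA mice had a myeloproliferative disease. The controls were matched for age, and their genotype is not given beyond the word control. CD31, the protein made from Pecam1, was among the antigens stained before the sort, together with CD45, Sca-1, CD51 and the lineage antigens. The labels do not say which side of the CD31 stain was kept.

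Bone marrow is threaded by arterioles, capillaries and wide, leaky sinusoids, and its endothelium supplies signals to blood stem cells and to bone-forming cells. In bone, capillaries rich in CD31 and in endomucin, the product of Emcn, lie beside the osteoprogenitors near the growth plate. Bone stroma in turn makes VEGF and angiopoietin ligands, which act on receptors that endothelial cells carry. The comparison of BA with control cells addresses whether vessel transcripts in this fraction differed between diseased and healthy bone. In bulk RNA, fewer cells of a type and less RNA per cell cannot be told apart.

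No endothelial gene differed between BA and control cells past an adjusted p of 0.05. The 9 differences, BA minus control, lay between -0.29 and 0.16 on the log2 scale, which is a ratio of BA to control between 0.816 and 1.11. Their adjusted p-values (limma, Benjamini-Hochberg over all 19938 genes) ran from 0.482 to 0.965. The same fit called 1 gene of all, 0.00502%. At an unadjusted p under 0.05 in limma 1 of the 9 was found, Flt4, against 9.4% of all genes in either direction (5.27% lower and 4.13% higher in BA cells). Without BA replicate 1 there were 2, Flt4 and Vwf. In that run the count over all genes was 2513, against 1875 with all arrays. The groups did not overlap for 0 of the 9, against 1.67% of all genes. The 95% interval of each of the 9 differences lay within 1 log2 unit of 0, so a 2-fold difference in either direction lay outside every interval. Expression values of dim probe sets are compressed near background, so an interval on the array scale can be narrower than the same interval on the scale of RNA. The compression was not measured here.

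**Figure D1:**
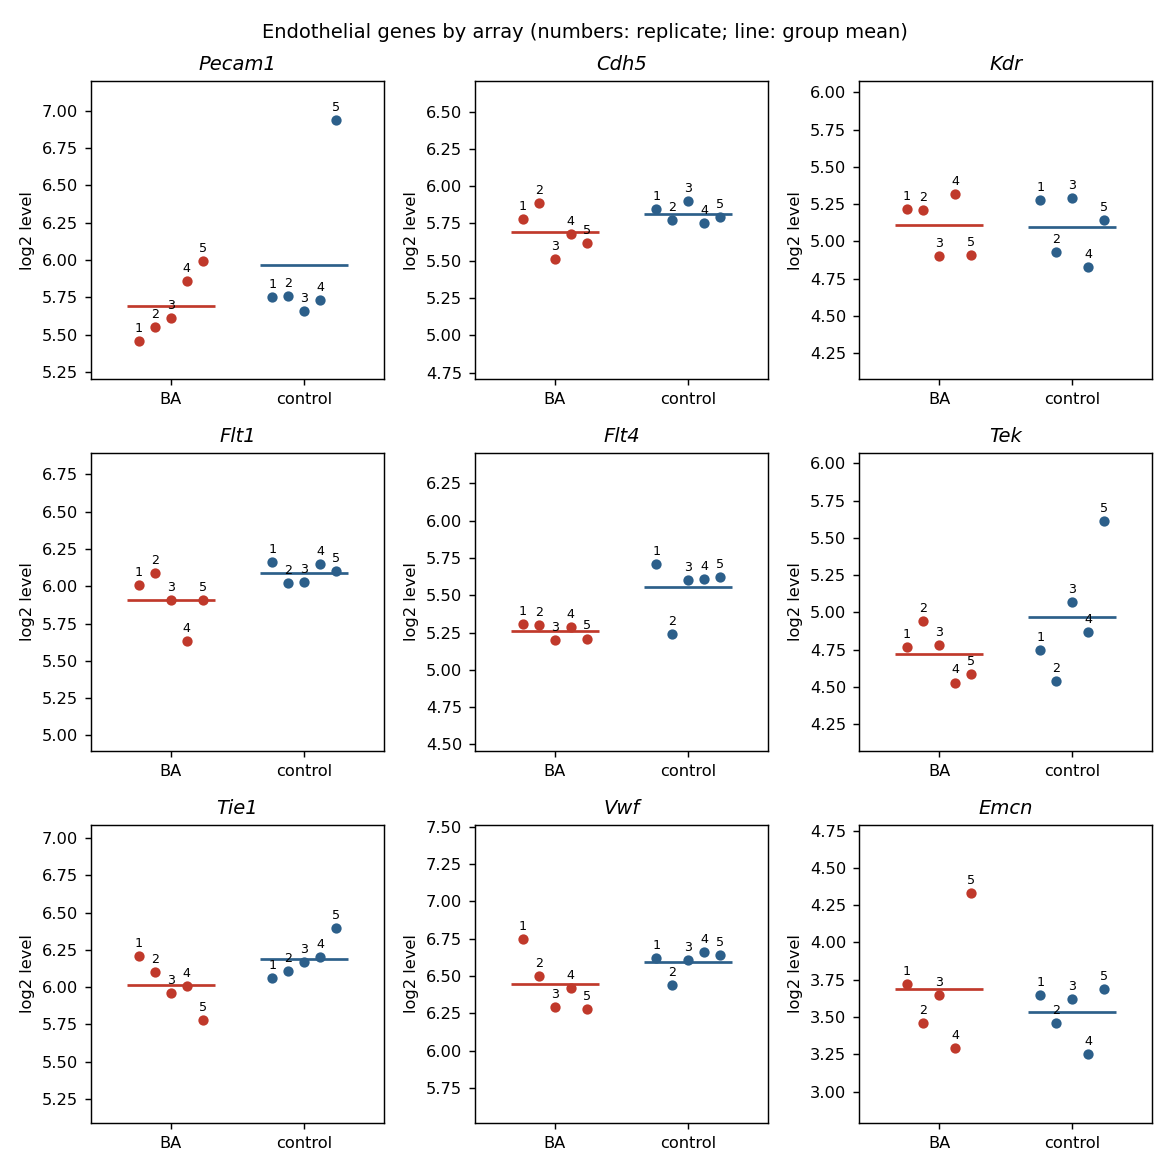
Log2 level of each of the 9 endothelial genes on every array, BA cells on the left and control cells on the right of each panel, with the replicate number above each point and a line at the group mean; every panel spans the same 2 log2 units. The groups overlap in all 9 panels, and Pecam1 on control replicate 5, at 6.94, is the point farthest from its group.

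The members were dim on these arrays. Probe sets of 1027 olfactory receptor genes, which serve smell in the nose, were chosen as a yardstick after the values had been seen. Their values on single arrays spanned 2.53 to 6.16 between the 5th and 95th percentiles. A separate comparison used mean levels over the 10 arrays for both gene groups. By it, 7 of the 9 endothelial genes lay below the 95th percentile of the receptors. Tie1 lay above 95.03% of the receptors and Vwf above 97.8%. Relative to all genes, 8 of the 9 lay below the median gene level of 6.15. Probe sets differ in brightness for the same amount of RNA, so these values do not rank the genes by transcript number. For the labelled cell type, 6 of 9 listed osteoblast markers were measured and the other 3 were not analysed here. The bone collagen gene Col1a1 lay between 8.36 and 10.20 in BA cells and between 10.08 and 10.89 in control cells, and Alpl, the alkaline phosphatase of mineralising cells, between 10.29 and 11.25 and between 9.74 and 10.92 in the same order. Dmp1, a matrix protein of osteocytes, averaged 6.12 in BA cells and 6.54 in control cells. The mean level of the 6 osteoblast markers lay between 8.82 and 9.77 on BA arrays and between 9.39 and 10.11 on control arrays. Cartilage markers were bright too: the mean of 8 listed chondrocyte markers, all measured, lay between 10.29 and 10.74 and between 9.96 and 10.71 in the same order.

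Pecam1 and Cdh5 encode the adhesion proteins of endothelial junctions. Pecam1 (CD31), which is also carried by platelets and many leukocytes, had 5.46, 5.55, 5.61, 5.86 and 5.99 in BA replicates 1 to 5, against 5.75, 5.76, 5.66, 5.73 and 6.94 in control replicates 1 to 5. BA values surrounded those of control replicates 1 to 4, and control replicate 5 stood above all 9 other arrays. The means were 5.69 ± 0.22 in BA cells and 5.97 ± 0.54 in control cells (SD, n = 5 each), a difference of -0.27 ± 0.24 (SE, 95% interval -0.81 to 0.26; adjusted p = 0.669, limma). Without control replicate 5 the difference was -0.03, so most of it came from that array. Cdh5, VE-cadherin, the classical cadherin of endothelial adherens junctions, had 5.78, 5.89, 5.51, 5.68 and 5.62 in BA cells and 5.85, 5.77, 5.90, 5.75 and 5.79 in control cells. Its values varied little: its SD pooled over both groups was 0.112, and 4.29% of all genes had a smaller one. Its mean level lay above 36.2% of all genes and above 89.2% of the olfactory receptor genes. A small SD at so dim a level does not show steady expression. BA replicates 1 and 2 lay within the range of the control arrays and BA replicates 3 to 5 below it, and the difference was -0.12 ± 0.09 (SE; adjusted p = 0.644, limma).

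The VEGF receptors are Flt1 (VEGFR1), which binds VEGF-A tightly and acts largely as a decoy, Kdr (VEGFR2), the main signalling receptor, and Flt4 (VEGFR3), the VEGF-C receptor of lymphatic vessels and marrow sinusoids. Flt4 had 5.31, 5.30, 5.20, 5.29 and 5.21 in BA cells, against 5.71, 5.24, 5.60, 5.61 and 5.62 in control cells. Control replicates 1, 3, 4 and 5 lay above every BA array, and control replicate 2 lay among the BA arrays. The means were 5.26 ± 0.05 in BA cells and 5.56 ± 0.18 in control cells (SD, n = 5 each), a difference of -0.29 ± 0.10 (SE, 95% interval -0.52 to -0.07). With an adjusted p of 0.482 (limma; 0.0156 unadjusted) it did not pass, and it ranked 640th of all genes by p. Without control replicate 2 the difference was -0.37 with an unadjusted p of 0.00136 and an adjusted p of 0.411 in limma. Flt1 had 6.01, 6.09, 5.91, 5.63 and 5.91 in BA cells, against 6.16, 6.02, 6.03, 6.15 and 6.10 in control cells. BA replicate 2 lay inside the control range and the other 4 BA arrays below it, BA replicate 4 the furthest, for a difference of -0.18 ± 0.10 (SE; adjusted p = 0.552, limma). Without BA replicate 4 the difference was -0.11. Kdr had 5.22, 5.21, 4.90, 5.32 and 4.91 in BA cells and 5.28, 4.93, 5.29, 4.83 and 5.14 in control cells. Both groups covered nearly the same range, and the difference of 0.02 ± 0.13 (SE, 95% interval -0.27 to 0.31; adjusted p = 0.965, limma) turned negative without BA replicate 1, 2 or 4 or control replicate 2 or 4, to between -0.05 and -0.01.

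Tek (TIE2) is the angiopoietin receptor that keeps vessels quiescent, and Tie1 is its co-receptor. Tek had 4.77, 4.94, 4.78, 4.53 and 4.59 in BA cells, against 4.75, 4.54, 5.07, 4.87 and 5.61 in control cells. The groups overlapped except for control replicates 3 and 5, which lay above every BA array, replicate 5 being the highest of the 10. The difference was -0.25 ± 0.19 (SE; adjusted p = 0.626, limma), and -0.09 without control replicate 5. Tie1 had 6.21, 6.10, 5.96, 6.01 and 5.78 in BA cells and 6.06, 6.11, 6.17, 6.20 and 6.40 in control cells. BA replicate 1 lay above 4 of the 5 control arrays, and control replicate 5 was again the highest, for a difference of -0.18 ± 0.11 (SE; adjusted p = 0.580, limma). Its difference without control replicate 5 was -0.12.

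Vwf and Emcn encode products of mature endothelium. Vwf, the clotting protein stored in endothelial granules and in platelets, had 6.75, 6.50, 6.29, 6.42 and 6.28 in BA cells, against 6.62, 6.44, 6.61, 6.66 and 6.64 in control cells. BA replicate 1 was the highest array and BA replicates 3 to 5 the lowest, and the difference was -0.15 ± 0.11 (SE; adjusted p = 0.622, limma). Without BA replicate 1 it was -0.22, with an unadjusted p of 0.0401 and an adjusted p of 0.390 in limma. Emcn, a sialomucin of capillary and venous endothelium, had 3.72, 3.46, 3.65, 3.29 and 4.33 in BA cells, against 3.65, 3.46, 3.62, 3.25 and 3.69 in control cells. BA replicates 1 to 4 covered nearly the same range as the control arrays, and BA replicate 5 stood above all other arrays. The difference of 0.16 ± 0.18 (SE; adjusted p = 0.748, limma) was -0.004 without that array. BA replicate 5 also had the highest mean over 14 pan-haematopoietic markers, 8.65, where the other BA arrays had 6.63 to 7.14 and control arrays 5.98 to 7.31, and its Ptprc (CD45) level was 9.29 against 5.54 to 5.90 on the other 9 arrays. All 14 markers were measured, and the part of blood cells in the Emcn value was not tested.

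**Figure D2:**
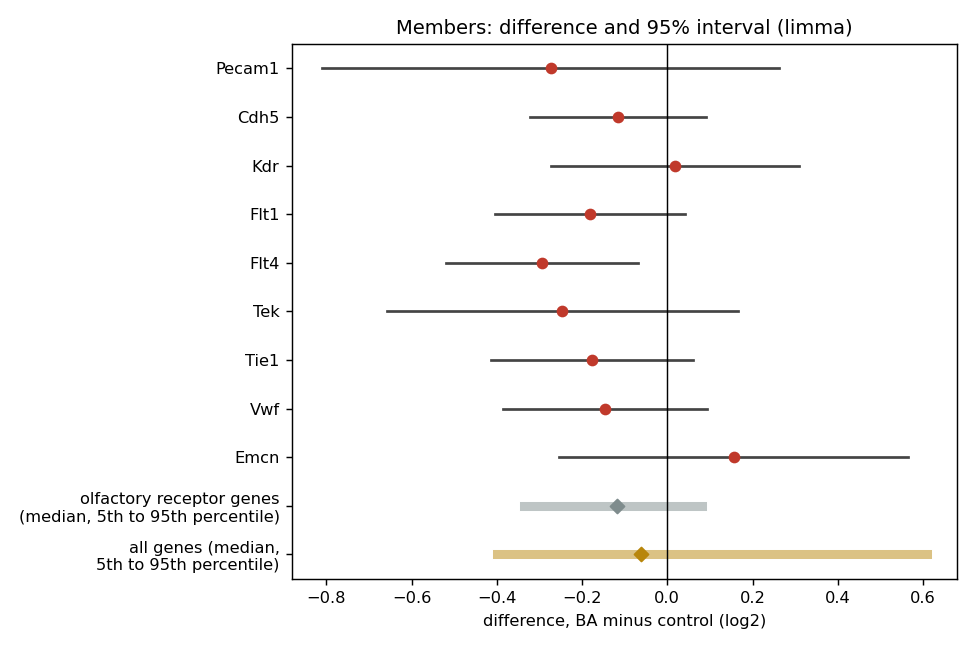
Difference of each endothelial gene, BA minus control on the log2 scale, as a point with its 95% interval from limma; below them, diamonds give the median difference of olfactory receptor genes and of all genes, with bars from the 5th to the 95th percentile over genes. The 9 points lie between -0.29 and 0.16, within the bar of all genes, and Flt4 alone has an interval that does not cross 0.

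The small differences leaned one way, as did those of most dim genes. The mean was lower in BA cells for 7 of the 9 endothelial genes, with a median difference of -0.18. It was lower for 62.1% of all genes as well, with a median of -0.06, and for 84.4% of the olfactory receptor genes, with a median of -0.12. In the dimmest 25% of genes, which hold Kdr, Tek and Emcn, the median difference was -0.10, and in the next 25%, which hold Pecam1, Cdh5, Flt1, Flt4 and Tie1, it was -0.09. It was -0.07 in the 25% that hold Vwf and 0.10 in the brightest 25%, which hold none of the 9. After quantile normalization 7 of the 9 were still lower, with a median of -0.14, while the medians of the olfactory receptor genes and of all genes became -0.05 and -0.03. None of the 9 passed under that setting. Genes listed as markers of the cells that wrap vessels moved the same way by more. Of 12 pericyte and smooth muscle markers, all measured, 11 had lower means in BA cells, with a median difference of -0.60. The other 1 was higher, by 0.32. At an unadjusted p under 0.05 in limma 6 of the 12 were lower in BA cells, against 5.27% of all genes, and 0 passed the adjusted threshold. Which cells of the sorted fraction gave these values was not tested. The mean level of these 12 lay between 6.56 and 7.26 on BA arrays and between 7.39 and 7.96 on control arrays. Their part in the endothelial differences was not tested.

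The same tilt was visible array by array. The median deviation of the 9 endothelial genes from their own 10-array means was -0.20 on BA replicate 3, -0.10 on BA replicate 4 and -0.19 on BA replicate 5, and that of the olfactory receptor genes was -0.14, -0.11 and -0.14 on these arrays. On BA replicates 1 and 2 it was 0.03 and 0.00 for the endothelial genes, and 0.04 and 0.03 for the receptors. On control replicates 1 to 5 the endothelial genes deviated by 0.10, -0.08, 0.09, 0.03 and 0.12, against 0.06, 0.01, 0.08, -0.02 and 0.14 for the receptors. Both gene groups were thus lowest on BA replicates 3 to 5, and the receptors were highest on control replicate 5. That array also held the highest value of the 10 for 21.3% of all genes, for 27.8% of the olfactory receptor genes and for 3 of the 9 endothelial genes (Pecam1, Tek and Tie1). How much of the endothelial differences this tilt of dimmer genes carries was not tested.

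**Figure D3:**
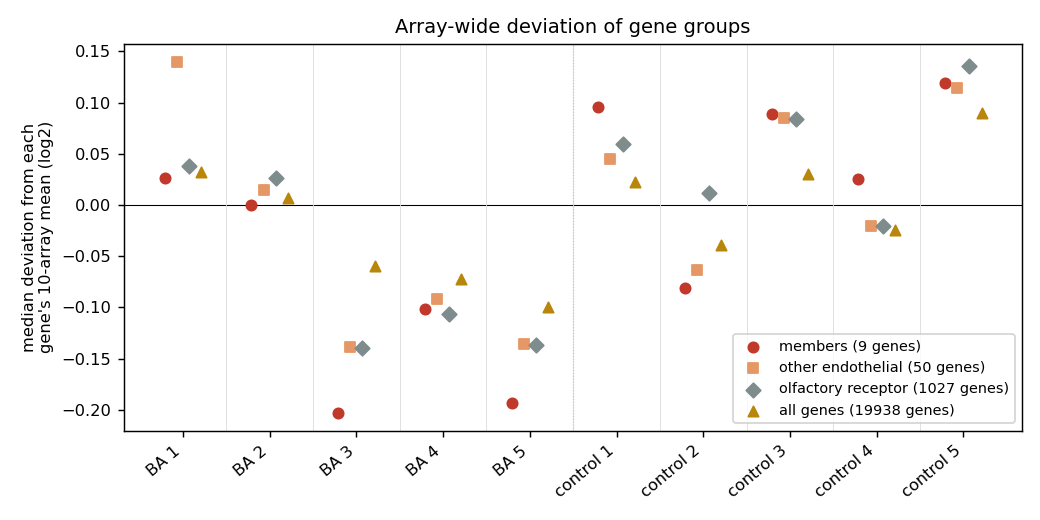
Median deviation, on the log2 scale, of 4 gene groups from each gene's mean over the 10 arrays, with BA arrays on the left and control arrays on the right. The 9 endothelial genes and the 1027 olfactory receptor genes are both below 0 on BA replicates 3 to 5 and above 0 on control replicates 1, 3 and 5.

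Among themselves the 9 genes moved together only in part. Over the 36 pairs, Pearson's r across the 10 arrays had a median of 0.385 and ran from -0.46 to 0.81, with 13 pairs above 0.5 and 10 below 0. These values describe arrays that share the tilt above. The 5 other genes whose pattern over the 10 arrays was most like the mean of the 9 were Aldh3b2, 9430021M05Rik, Msln, Rasal3 and Otof, with r between 0.960 and 0.968. Without control replicate 5 their r over 9 arrays lay between 0.887 and 0.940. Otof encodes otoferlin, a protein of inner ear hair cells, and Msln encodes mesothelin, a surface protein of mesothelium, and no gene of the endothelial lists was among the 5. Those most like Pecam1 alone were Trpt1, Gm5617, Mc5r, Epsti1 and Gm15401 (r between 0.951 and 0.968), all of them highest on control replicate 5, and without it their r was 0.568 to 0.828.

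On control replicate 5 the endothelial genes did not stand out together. Pecam1 exceeded its mean on the other 9 arrays by 1.23 there, which ranked 250th among all genes, and Tek did so by 0.85, rank 559. Cdh5 and Kdr exceeded theirs by 0.04 each, Emcn by 0.09, Flt1 by 0.11, Vwf by 0.13, Flt4 by 0.23 and Tie1 by 0.33. Of the other endothelial genes, Erg, an ETS family transcription factor of endothelium and also of cartilage, had the greatest excess there, 1.53, and it was as high on control replicate 4 (8.41) as on replicate 5 (8.44), with 6.68 to 7.08 on BA arrays and 6.35 to 6.74 on the other control arrays. It was named after its values were seen.

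Platelets carry Pecam1 and Vwf too. Of 13 platelet and megakaryocyte markers listed, 9 were measured, and 0 of these passed in either direction at an adjusted or an unadjusted p of 0.05 in limma, with a median difference of -0.07. Their mean level lay between 5.24 and 5.64 on BA arrays and between 5.28 and 5.62 on control arrays. Among the 4 with the smallest p, the platelet glycoprotein and integrin genes Gp9 and Itgb3 differed by -0.17 ± 0.09 and -0.23 ± 0.18, while Ppbp, a platelet chemokine, and Gp5, another platelet glycoprotein, differed by 0.38 ± 0.26 and 0.23 ± 0.21 (SE). Both Ppbp (6.07) and Gp5 (7.01) were highest on BA replicate 5, the array with the highest Emcn.

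The wider endothelial program gave a similar picture. Of 52 other endothelial genes listed, 50 were measured: 30 pan-endothelial genes, 9 arterial, 6 venous or activated and 5 sinusoidal or lymphatic. At the adjusted threshold 0 of the 50 passed, and at an unadjusted p under 0.05 in limma 2 did, Adgrf5 and Hey1, both lower in BA cells, against 9.4% of all genes. That unadjusted count was 7 without BA replicate 1, where 2513 of all 19938 genes were under 0.05, against 1875 with all arrays. It was 6 without BA replicate 4 (1587 of all genes) or control replicate 4 (2121). Without control replicate 3 (1551 of all genes) or 5 (1640) it was 4. Leaving out any other array gave 2 or 3. The mean was lower in BA cells for 35 of the 50, with a median difference of -0.08 against -0.06 over all genes. The pan-endothelial list had 23 of 30 lower and a median of -0.09, the arterial list 5 of 9 and -0.05, the venous list 4 of 6 and -0.10, and the sinusoidal and lymphatic list 3 of 5 and -0.01.

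Several genes with larger differences in these lists are also expressed outside endothelium. Adgrf5, an adhesion receptor of lung and vessel cells, had 6.45, 5.94, 6.87, 6.14 and 5.45 in BA cells, against 8.37, 7.63, 7.15, 5.98 and 7.45 in control cells. Apart from control replicate 4 the control arrays lay above every BA array, and the difference of -1.15 ± 0.41 (SE) did not pass (adjusted p = 0.484, limma). S1pr1, the sphingosine-1-phosphate receptor, differed by -0.67 ± 0.30 and Vcam1, the adhesion molecule of activated endothelium and of marrow stroma, by -1.15 ± 0.52 (SE; adjusted p = 0.533 for both, limma). Vcam1 had 9.11, 7.29, 8.50, 8.69 and 7.06 in BA cells and 9.93, 10.22, 9.75, 8.35 and 8.15 in control cells. Hey1, a Notch target of arteries and of osteoblasts, averaged 6.77 ± 0.21 in BA cells and 7.20 ± 0.30 in control cells (SD, n = 5 each; adjusted p = 0.484, limma). Efnb2, the arterial ephrin, differed by 0.55 ± 0.37. Pdpn, podoplanin, a marker of lymphatic endothelium and of early osteocytes and stroma, had 8.07, 10.07, 9.60, 8.05 and 8.49 in BA cells, against 8.55, 7.01, 6.09, 9.19 and 6.88 in control cells. The groups overlapped and its difference of 1.31 ± 0.63 (SE) did not pass (adjusted p = 0.534, limma). Prox1 and Lyve1, 2 other lymphatic markers, differed by -0.19 ± 0.15 and 0.07 ± 0.11, and the sinusoidal scavenger receptor genes Stab1 and Stab2 by -0.10 ± 0.11 and -0.01 ± 0.09.

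**Figure D4:**
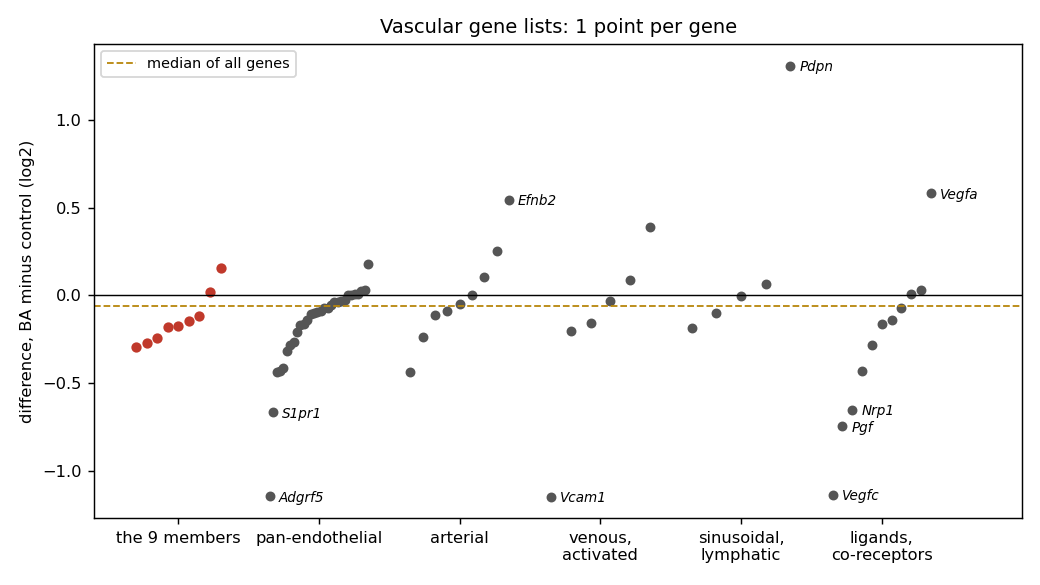
Difference of each gene, BA minus control on the log2 scale, for the 9 members, 4 lists of other endothelial genes and a list of vascular ligands and co-receptors, 1 point per gene, with the median of all genes as a dashed line. Genes beyond 0.5 in either direction are named, and none of the points shown passed the adjusted threshold.

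Some genes for ligands and co-receptors of these receptors were brighter than the 9 members. Which cells of the fraction made them was not tested. Of 11 ligand and co-receptor genes, 0 passed at the adjusted threshold and 8 had lower means in BA cells, with a median difference of -0.17. Vegfa, the ligand of Flt1 and Kdr, had 9.55, 10.02, 9.94, 8.18 and 9.13 in BA cells, against 8.76, 8.94, 7.87, 8.77 and 9.57 in control cells. The ranges overlapped throughout, with a difference of 0.58 ± 0.39 (SE; adjusted p = 0.594, limma). Vegfc, the ligand of Flt4, had 5.71, 5.53, 5.76, 5.55 and 5.34 in BA cells, against 7.76, 7.72, 7.04, 5.69 and 5.37 in control cells. Control replicates 1 to 3 were high and replicates 4 and 5 lay in the range of the BA arrays, and the difference of -1.14 ± 0.45 (SE) reached an unadjusted p of 0.0300 and an adjusted p of 0.507 in limma. Flt4 had no such split, since its level on control replicates 4 and 5 was 5.61 and 5.62 and on control replicate 2 it was 5.24. Pgf, placental growth factor, which binds Flt1, differed by -0.75 ± 0.50, with control replicate 1 at 8.34 and the other 9 arrays between 5.09 and 6.22. Nrp1, a co-receptor for VEGF-A, differed by -0.65 ± 0.32 (SE; adjusted p = 0.534, limma). Angpt1, the ligand that activates Tek, had 4.56, 5.07, 5.79, 4.74 and 4.79 in BA cells, against 6.83, 6.74, 4.48, 3.82 and 4.49 in control cells. Control replicates 1 and 2 lay above every BA array and control replicates 3 to 5 below every BA array.

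Promoter windows were searched for letters that endothelial transcription factors are known to favour, since ETS family factors act on many endothelial promoters and GATA factors on several. RefSeq windows on GRCm38.p6, from 250 bases before to 50 after the gene start, were matched for 6 of the 9 genes (Emcn, Tek, Tie1, Kdr, Flt1 and Flt4), and those of Pecam1, Cdh5 and Vwf were not analysed here. The 7-base ETS form CAGGAAG, or CTTCCTG on the other strand, was in 1 of the 6 windows, against 13.3% of all 32851 windows. The 6-base GATA form AGATAA, or TTATCT, was in 1 of the 6, against 11.2%. Only these exact letters were searched, so a window without a match can still hold another form of either motif. The ETS match lay in the Emcn window, 174 bases before the start on chromosome 3, plus strand, in chr3:137340874-137340940. It is printed with 30 bases on each side to show the context of the match, which is in capitals.
Emcn: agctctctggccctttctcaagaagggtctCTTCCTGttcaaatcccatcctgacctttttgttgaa
The GATA match lay in the Tek window on chromosome 4, from base 37 after the start. The motifs do not overlap, and a match is a description of letters only.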

How the data were processed

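RNA from sorted OBCs of 5 BA and 5 control mice was amplified and hybridised to Affymetrix Gene ST 1.0 arrays, 1 per mouse, per the labels' protocols. The values are the deposited ones, for 35557 probe sets, on a log2 scale from 1.21 to 13.7. Array medians lay between 5.91 and 6.02. The submitters' processing notes name GCRMA (version not given in the sources used here), and base 2 was inferred from that method and the range of values. Detection calls were not used. Precision is limited by the number of arrays.

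Symbols came from the platform annotation: 21789 probe sets had 1 symbol, 1621 several and 12147 none. Each of the 19938 genes was represented by its probe set with the highest mean over the 10 arrays, with no filter on dim genes. Gene IDs of 19856 were found in the RefSeq table of GRCm38.p6. The BA against control fit used R 4.3.3 and limma 3.58.1 (two-sided, lmFit then eBayes, without covariates), with Benjamini-Hochberg adjustment over all genes and a threshold of 0.05. The script was tested on simulated data. Genes named are the 9 members, up to 4 genes per list with the smallest p, and the targets of the sorting antibodies. The 5 genes most like the members by Pearson's r are named too. Erg, Plvap, Fli1, Stab2, Angpt1, Angpt2, Calcrl and Myct1 were chosen after their values were seen. The members and lists were chosen with earlier results of these data known. Other settings tried were a block for replicate number, median centring, quantile normalization, a filter on dim genes, trend and robust eBayes, averaging of probe sets per gene, a threshold of 0.10 and leaving out each array.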

Additional observations from a re-analysis of the deposited data

Results flagged for a closer look

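In groups of 5 arrays, the highest or lowest array was compared with the spread of its group for 37 genes, or 74 groups, and 8 arrays stood apart (gap to the nearest array over the range above 0.71). Chance gives about 1 in 20 groups. Among the endothelial genes, Pecam1 stood at 6.94 on control replicate 5, with the other control arrays between 5.66 and 5.76. Flt4 stood at 5.24 on control replicate 2, with the others between 5.60 and 5.71. Vwf stood at 6.44 on control replicate 2, with the others between 6.61 and 6.66. Among the antigens stained for the sort, the CD51 gene Itgav stood at 9.42 on control replicate 5, where the other control arrays had 8.45 to 8.70. BA arrays had 9.30 to 9.77 for Itgav. Its difference of 0.77 ± 0.19 (SE) did not pass (adjusted p = 0.384, unadjusted p = 0.00213, limma). On BA replicate 5, Ptprc (CD45) stood at 9.29, with 5.73 to 5.88 on the other BA arrays, and Itgam (Mac-1) at 7.95, with 4.92 to 5.53. On control replicate 2, Ly6g stood at 6.74, with 4.27 to 4.57 on the other control arrays, and Cd4 at 5.61, with 5.88 to 5.95.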

How the results depend on the processing

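None of the 9 endothelial genes and none of the 50 other endothelial genes passed the threshold under any alternative run, and the lowest adjusted p of a member was 0.377 (Flt4). Leaving out arrays, the members' differences ranged from -0.35 to -0.03 for Pecam1, -0.16 to -0.07 for Cdh5, -0.048 to 0.071 for Kdr, -0.23 to -0.11 for Flt1, -0.37 to -0.26 for Flt4, -0.35 to -0.09 for Tek, -0.23 to -0.12 for Tie1, -0.22 to -0.10 for Vwf and -0.004 to 0.26 for Emcn. The signs of Kdr and Emcn turned as given above, and the cause was not tested. The number of all genes past the threshold was 1, and 0 with the replicate block or among genes above the median level. It ranged from 0 to 13 when arrays were left out: 13 without BA replicate 4, 2 without BA replicate 1 or control replicate 4, and 0 without BA replicate 3 or 5 or control replicate 2 or 5. Same-numbered BA and control arrays deviated together by r of -0.10 to 0.11, and 1 of 5 BA arrays correlated best with its own number. Correlations over all genes cannot settle whether same-numbered mice were paired. The median of the 9 genes was -0.14 with median centring and -0.12 without control replicate 5. The count of other endothelial genes at an unadjusted p under 0.05 in limma was 2 of 50 in the fit reported, against 1875 of all 19938 genes. It was 4 of 50 with the replicate block, against 1669 of all genes. With quantile normalization it was also 4 of 50, against 1656 of all genes. The filter on dim genes left 1 member, Vwf. Whether the labels' replicates shared cages, litters or days is not given. Dim probe sets limit what could be seen: a difference in RNA near background is compressed on this scale.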

Other observations

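BA replicate 1 held the highest value of the 10 arrays for 17 of the 50 other endothelial genes (34.0%), against 12.3% of all genes. Of the 9 members, 1 was highest there, Vwf. The genes given next were chosen after their values were seen. Calcrl, the adrenomedullin receptor, stood at 8.09 on BA replicate 1, with the other BA arrays between 4.77 and 5.43, and at 7.58 on control replicate 1, with the other control arrays between 5.13 and 6.01. Myct1 was highest on control replicate 1 at 6.45, with 4.42 to 5.11 on BA arrays and 4.63 to 5.27 on the other control arrays. Pecam1, Cdh5 and Tek had 5.46, 5.78 and 4.77 on BA replicate 1 and 5.75, 5.85 and 4.75 on control replicate 1, within the range of the other arrays except that Pecam1 on BA replicate 1 was the lowest of the 10. Outside those 50 genes, Angpt2, the angiopoietin that opposes Tek signalling, stood at 8.12 on BA replicate 1, with the other BA arrays between 5.38 and 5.81 and control arrays between 5.63 and 6.67.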
